A study of Rattus norvegicus with 18 samples.

Results

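The genes described here make sterols and fatty acids or set how much of both is made. They were chosen by name: 44 genes of the SREBP pathway and of cholesterol and fatty acid synthesis, each matched to a probe set that carries a single gene symbol, with the probe set of the highest mean standing for a gene with several. Of the 44 genes, 38 were measured, out of 14324 genes with a symbol on the array. They comprise 5 enzymes of the mevalonate and isoprenoid steps, 11 enzymes from squalene to cholesterol, 10 enzymes of fatty acid synthesis, elongation and desaturation, 6 genes of SREBP control, and 6 genes of sterol transport and storage. Hmgcs1, Mvk, Fdps, Fasn, Elovl1 and Srebf1 were not analysed here.

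The study set hypoxic and normoxic regions of rat 9L tumours beside 9L cells kept at low and ordinary oxygen. 9L is an established gliosarcoma line from the Fischer rat, and the tumours grew in male Fischer 344 rats (strain label Fisher, age label 6 weeks), which are its isogenic, immune-competent hosts. Each of 3 tumours, started from serially passaged tumour pieces tied to the epigastric vessels, gave 1 normoxic and 1 hypoxic sample, cut by laser capture from areas negative or positive for EF5, a nitroimidazole that binds in hypoxic cells. Cultures grew in medium with 12% newborn calf serum. Their oxygen was about 20% or 0.2%, and exposure lasted 6 h (cultures 6, 13 and 26) or 16 h (cultures 22, 28 and 29), giving 4 groups of 3. The labels name no genetic change and no drug treatment in any group, and EF5 served to mark hypoxic tissue. The labels do not say whether cultures were grown independently, so their p-values rest on a spread among these samples that could be technical. The titles of the 6 h and 16 h cultures carry different letter codes. In any comparison of 16 h with 6 h, time and code series therefore cannot be told apart.

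Sterol and fatty acid synthesis are driven by SREBP transcription factors. An SREBP precursor sits in the endoplasmic reticulum bound to Scap, and when sterols are high, Insig proteins hold the complex there. When sterols are low, Scap carries SREBP to the Golgi, where the proteases encoded by Mbtps1 and Mbtps2 release the active factor. Insig1 is itself an SREBP target, and Insig2 is a second gene for the same retention step. Several of the enzymes, among them Sqle, Cyp51, Msmo1, Sc5d and the desaturases, consume molecular oxygen, so the pathway ties lipid supply to oxygen supply.

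The bases before the start of 4 genes are shown because these genes carry the contrasts described below: the Insig pair, Nsdhl as the sterol enzyme with the smallest tumour p, and Elovl5 as the fatty acid enzyme with the smallest. Insig2 and Elovl5 were added after the values were seen, and Sqle, the sterol enzyme next in order, has no entry in the promoter table. Each run gives the 250 bases before the RefSeq start, 5′ to 3′ along the gene's strand, in build GRCr8. Capitals mark matches on either strand to CACNCCAC (a sterol regulatory element core), CCAAT (the NF-Y box) or ACGTG (the core of the hypoxia response element). Insig1 lies at chr4:8057770-8058019 on the minus strand, Insig2 at chr13:35040099-35040348 on the minus strand, Nsdhl at chrX:155817110-155817359 on the plus strand and Elovl5 at chr8:87670914-87671163 on the plus strand.
Insig1: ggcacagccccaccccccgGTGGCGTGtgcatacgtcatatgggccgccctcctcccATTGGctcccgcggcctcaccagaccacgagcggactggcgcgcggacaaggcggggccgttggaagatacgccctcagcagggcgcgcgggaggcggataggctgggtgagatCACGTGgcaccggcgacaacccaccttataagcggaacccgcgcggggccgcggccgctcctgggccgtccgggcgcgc
Insig2: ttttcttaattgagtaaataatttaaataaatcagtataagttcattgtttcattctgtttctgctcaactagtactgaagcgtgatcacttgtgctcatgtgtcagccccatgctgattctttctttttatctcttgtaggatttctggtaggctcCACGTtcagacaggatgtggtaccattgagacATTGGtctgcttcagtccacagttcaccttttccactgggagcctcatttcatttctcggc
Nsdhl: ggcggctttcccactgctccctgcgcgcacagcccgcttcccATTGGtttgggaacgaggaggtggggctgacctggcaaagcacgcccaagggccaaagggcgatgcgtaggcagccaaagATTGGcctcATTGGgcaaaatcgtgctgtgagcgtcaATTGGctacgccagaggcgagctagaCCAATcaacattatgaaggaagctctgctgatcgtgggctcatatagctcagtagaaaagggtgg
Elovl5: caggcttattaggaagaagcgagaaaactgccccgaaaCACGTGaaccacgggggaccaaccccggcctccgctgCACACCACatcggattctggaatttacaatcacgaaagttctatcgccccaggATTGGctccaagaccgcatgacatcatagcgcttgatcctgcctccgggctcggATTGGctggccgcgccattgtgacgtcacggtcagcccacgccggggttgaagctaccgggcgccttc
The Insig1 run held the sterol element core 231 bases before the start, 1 CCAAT box, and CACGTG, which reads as ACGTG on both strands. Insig2 held 1 ACGTG and 1 CCAAT and no match to CACNCCAC. Nsdhl held 5 CCAAT boxes and neither other motif, and Elovl5 held all 3 motifs. No match overlapped one of another motif in these runs.

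Promoter windows of 300 bases, from 250 before to 50 after the start, were matched for 31 of the 38 measured genes. The sterol element core was found in 5 of these 31 (Acat2, Ebp, Insig1, Elovl5 and Fads1), against 5.8% of all 33469 windows in the table. The CCAAT box was found in 21 of 31 (67.7%), against 37.5% of all windows, and ACGTG in 9 of 31 (29%), against 19.3%. Each of the 31 genes has a single window here, while the shares over all windows were not limited to genes on the array. A match is a run of letters and does not show binding.

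Values are log2 probe set signals, and a difference is hypoxic minus normoxic on that scale unless stated otherwise. The median of an array was 6.36 to 6.5 for tumours and 6.02 to 6.19 for cultures. Within a group, tumour arrays correlated at 0.937 to 0.964 and culture arrays at 0.988 to 0.996, so the tumour comparison carries the wider error. The normoxic array of tumour 3 stood apart, with a correlation of 0.941 to the normoxic culture mean against 0.865 to 0.892 for the other 5 tumour arrays. All 10 hypoxia genes used as a check were higher in hypoxic than normoxic samples in each of the 9 pairs. Car9, a carbonic anhydrase, differed by 1.94 ± 0.19 (SE) in tumours, 1.60 ± 0.19 at 6 h and 1.54 ± 0.19 at 16 h. Slc2a1, a glucose transporter, differed by 1.90, 1.42 and 1.53, and Bnip3, a mitophagy receptor, by 3.21, 1.64 and 1.42 in the same order. Of 11 glial and neural stem markers, 5 lay below the array median in both tumour groups and 5 or 6 in the culture groups. Vim was high in every array (11.9 to 12.4), and Sox2 (7.05 to 8.37) and Nes (6.97 to 7.81) lay above the array medians in tumours, while the astrocyte markers Gfap and S100b lay below them in all 18 arrays.

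In the tumours, many of these genes were lower in hypoxic regions, but none passed the test over the 6 tumour arrays. No probe set of 27363 reached an adjusted p of 0.05 in limma over 3 tumour pairs (percent called 0). At an unadjusted p under 0.05, 9.12% of all probe sets were past it, 5.7% as lower and 3.42% as higher, against 13 of the 38 genes lower and 0 higher. The same contrast in a fit of all 18 arrays with 9 pairs as blocks called 1408 of the 27363 probe sets and 11 of the 38 genes, all lower. These were Acat2 (adjusted p = 0.0161), Mvd (0.041), Sqle (0.00131), Nsdhl (0.00083), Ebp (0.0232), Acss2 (0.00208), Acaca (0.0292), Elovl5 (0.000572), Scd2 (0.0304), Insig1 (0.0348) and Soat1 (0.0359). That fit still holds 3 tumour pairs and shares its error with the less variable cultures, so its p-values do not rest on tumour spread alone. By direction alone 29 of the 38 were lower, against 35.2% of all probe sets. In all 3 tumours 17 of the 38 were lower (11% of all probe sets). In 10 of the 38 every hypoxic array lay below every normoxic one (4.62% of all probe sets), namely Acat2, Mvd, Sqle, Nsdhl, Ebp, Acss2, Acaca, Elovl5, Fads1 and Insig1. The opposite, every hypoxic array above every normoxic one, held for Tm7sf2 and Acacb (11.8% of all probe sets).

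Bright probe sets were lower more often than dim ones in hypoxic tumour regions, and most of these genes are bright. Of the 38 genes, 26 lie among the brightest 25% of probe sets by mean signal. There 61.3% of all probe sets and 23 of the 26 genes were lower, and 14.4% of all probe sets and 11 of the 26 genes were lower at an unadjusted p under 0.05. The median difference was -0.13 over these probe sets and -0.59 over the 26 genes. The part of brightness in the result was not tested further.

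**Figure D1:**
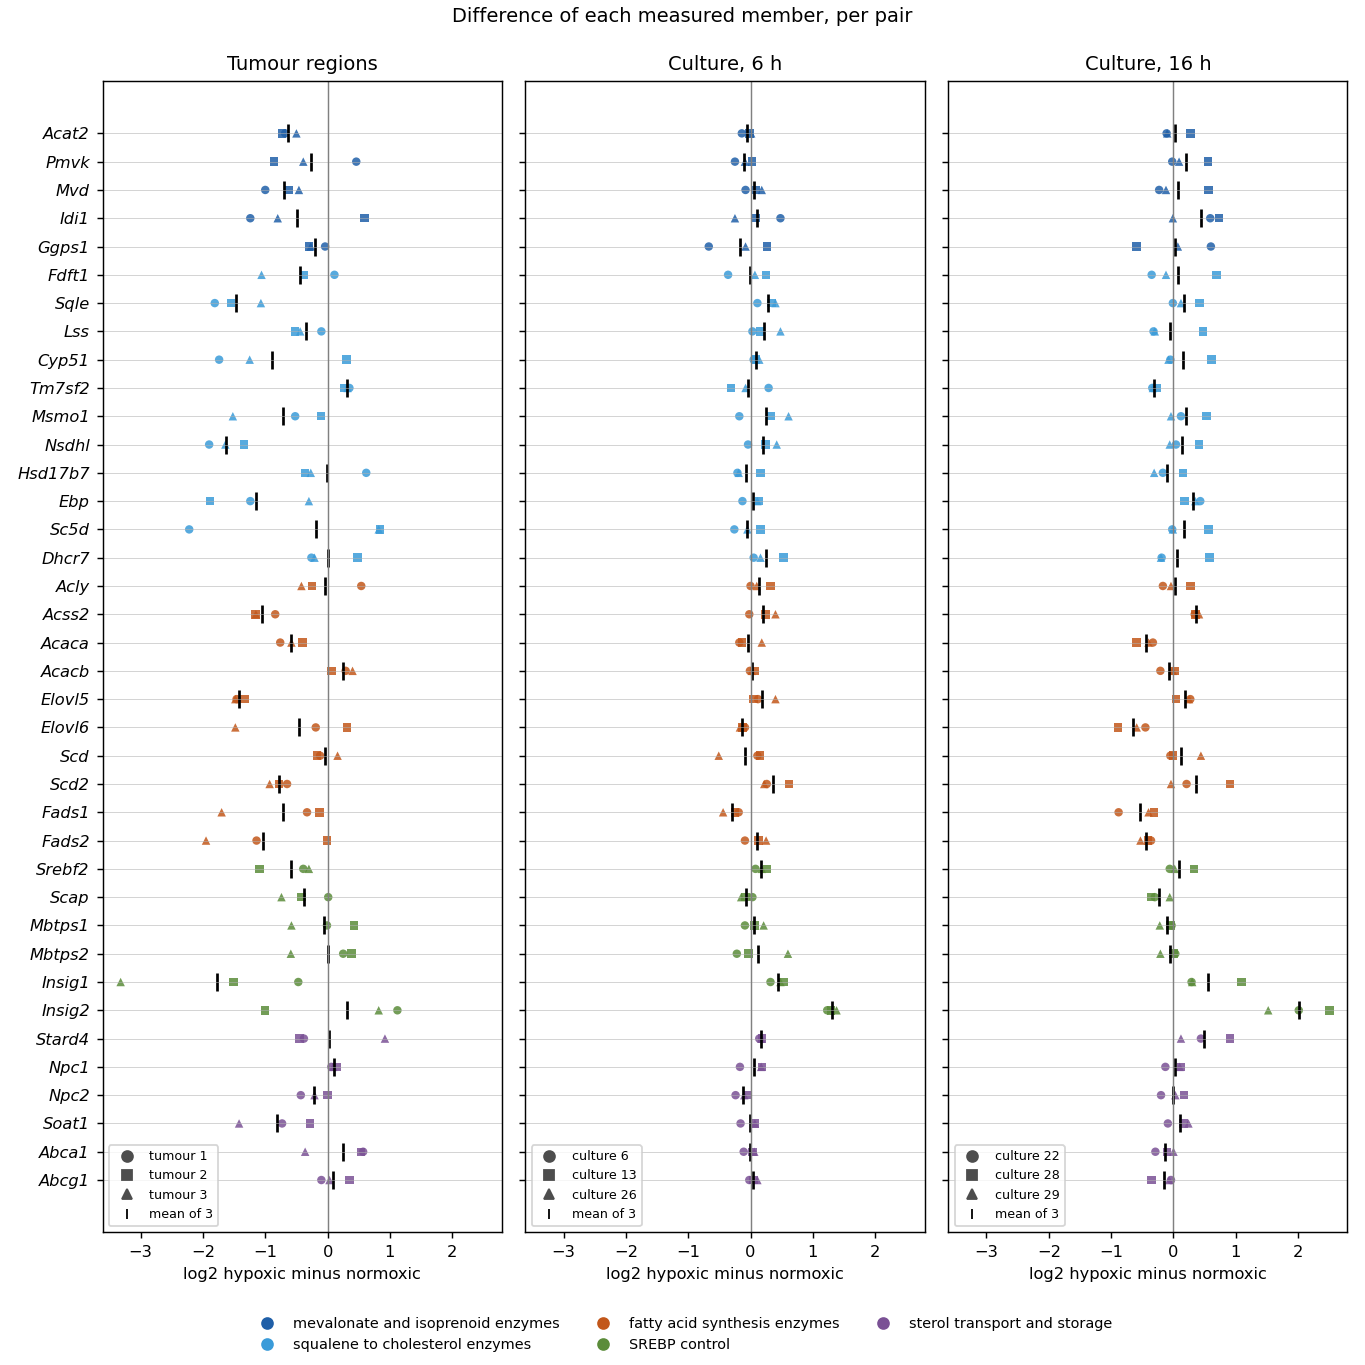
Log2 difference, hypoxic minus normoxic, of each of the 38 measured genes (rows, coloured by role) in each of 9 pairs (points) with the mean of 3 pairs (bar), in tumours, 6 h cultures and 16 h cultures. Nsdhl, Sqle and Elovl5 lie below -1 in every tumour and near 0 in the cultures, while Insig2 lies above 1 in every culture.

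Of the genes of SREBP control, Insig2 rose strongly in hypoxic cultures and was the only gene of the 38 to pass the test in either culture comparison. Its signal was 7.38, 7.49 and 7.67 in normoxic cultures 6, 13 and 26 at 6 h, and 8.62, 8.79 and 9.05 in the hypoxic ones. At 16 h it was 7.36, 7.06 and 7.69 in normoxic cultures 22, 28 and 29, and 9.37, 9.56 and 9.21 in the hypoxic ones. The groups did not overlap at either time. Insig2 rose by 1.30 ± 0.16 (SE) at 6 h, which is 2.47-fold (adjusted p = 0.00206), and by 2.01 ± 0.16 at 16 h, which is 4.03-fold (adjusted p = 2.84e-05). In limma over the 12 culture arrays 0.19% of all probe sets were called at 6 h and 0.705% at 16 h. The response at 16 h exceeded that at 6 h by 0.71 ± 0.23, which did not pass (adjusted p = 0.982). No probe set was called in that contrast (percent called 0), and 4.36% had an unadjusted p under 0.05.

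In the tumours Insig2 showed no such uniform rise. Tumours 1, 2 and 3 read 6.41, 6.72 and 6.00 in normoxic and 7.54, 5.72 and 6.82 in hypoxic regions. Tumours 1 and 3 were higher in the hypoxic region and tumour 2 was lower, and the groups overlapped. The mean difference was 0.31 ± 0.42 (adjusted p = 0.795), and it was -0.09 without tumour 1. With all 3 tumours the 95% interval ran from -0.70 to 1.33. That range just includes the rise of 1.30 in 6 h cultures but not that of 2.01 in 16 h cultures.

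Insig1 moved less than Insig2 in cultures. Its signal was 10.51, 10.58 and 10.59 in normoxic and 10.83, 11.11 and 11.07 in hypoxic cultures at 6 h, in the order 6, 13 and 26. At 16 h it was 10.77, 10.75 and 10.58 in normoxic and 11.05, 11.84 and 10.88 in hypoxic cultures 22, 28 and 29. The groups did not overlap, but the differences of 0.44 ± 0.19 (adjusted p = 0.971) and 0.56 ± 0.19 (adjusted p = 0.337) did not pass. Culture 28 had the highest hypoxic value.

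In the tumours the Insig1 probe set was lower in every hypoxic region. The normoxic regions read 9.81, 11.32 and 10.12 and the hypoxic regions 9.34, 9.81 and 6.80 in tumours 1, 2 and 3. The lowest normoxic and the highest hypoxic array were almost level, and tumour 3 showed a difference of -3.32. The mean difference was -1.77 ± 0.50 (adjusted p = 0.399), and without tumour 1 it was -2.41 (adjusted p = 0.000111). That fit held tumours 2 and 3 alone, with unlike differences of -1.51 and -3.32, and called 563 probe sets. Leaving out tumour 2 or tumour 3 instead called 0 probe sets. A second Insig1 probe set, much dimmer with a mean of 6.61 against 10.43, did not show this. It differed by 0.75, -0.34 and 0.50 in the 3 tumours, with a mean of 0.30 ± 0.26 (adjusted p = 0.709). In cultures both probe sets ran the same way, the second with 0.33 ± 0.24 at 6 h and 0.73 ± 0.24 at 16 h.

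Set against each other, the signed difference of Insig1 was below that of Insig2 in all 9 pairs. In tumours 2 and 3 the Insig1 value was the larger in size, in the downward direction. The response of Insig1 minus that of Insig2 was -0.91, -0.77 and -0.90 in cultures 6, 13 and 26, a mean of -0.86 ± 0.08 (SD, n = 3). At 16 h it was -1.73, -1.41 and -1.22 in cultures 22, 28 and 29, a mean of -1.45 ± 0.25 (SD, n = 3). In tumours 1, 2 and 3 it was -1.60, -0.51 and -4.14, a mean of -2.08 ± 1.86 (SD, n = 3). An exact two-sided permutation test gave p = 0.1 at each culture time and p = 0.25 in tumours, the smallest values these designs allow. Over all 9 pairs the difference was -1.47. Exact permutation within each setting, which kept the pairs in tumours but not in cultures, gave p = 0.000625, the smallest of 3200 arrangements. With the second Insig1 probe set, an alternative added after the data were seen, the difference was -0.76 over all pairs (exact p = 0.00312). It was -0.97 at 6 h and -1.28 at 16 h, but -0.01 in tumours (exact p = 1). The difference between both genes in tumours therefore rests on the brighter Insig1 probe set.

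**Figure D2:**
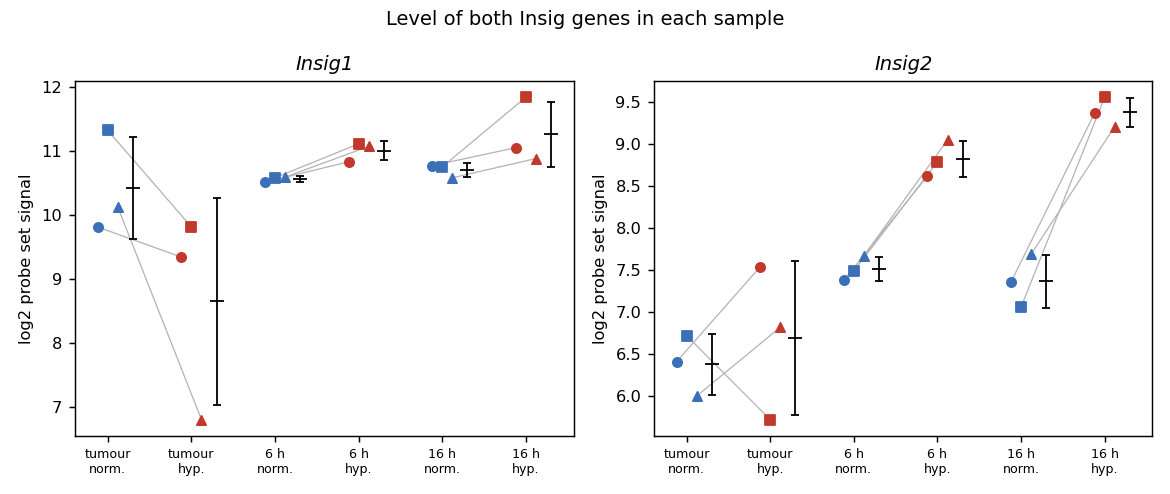
Log2 signal of Insig1 and Insig2 in each of the 18 arrays (normoxic blue, hypoxic red), with lines joining the 2 arrays of a pair and the mean ± SD of 3 arrays beside each group. Insig2 rises in all 6 culture pairs, and Insig1 reads 10.12 in the normoxic and 6.80 in the hypoxic region of tumour 3.

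Of the other SREBP control genes, Srebf2, which encodes the SREBP that chiefly drives sterol genes, was lower in each hypoxic tumour region. It was 8.59, 9.16 and 7.65 in normoxic and 8.20, 8.07 and 7.35 in hypoxic regions of tumours 1, 2 and 3. The groups overlapped, since tumour 3 was low in both regions, and the difference of -0.59 ± 0.23 did not pass (adjusted p = 0.519). At 6 h Srebf2 was 7.25, 7.29 and 7.25 in normoxic and 7.33, 7.56 and 7.43 in hypoxic cultures, and at 16 h 7.68, 7.45 and 7.43 against 7.62, 7.78 and 7.46. The groups overlapped at 16 h only. In cultures Srebf2 differed by 0.17 ± 0.11 at 6 h and 0.10 ± 0.11 at 16 h. Scap, the escort of SREBP, differed by -0.24 ± 0.10 at 16 h (adjusted p = 0.511), and Mbtps1 by -0.10 ± 0.10, both with no overlap between groups. At 16 h 7 of the 38 genes were lower without overlap (8.13% of all probe sets) and 5 higher (6.6%). Mbtps1 and Mbtps2 did not pass in the tumour or culture comparisons.

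Among the mevalonate enzymes, all 5 measured were lower in hypoxic tumour regions on average, with a median difference of -0.48 against 0.10 over all probe sets. Acat2, the cytosolic thiolase that starts the pathway, was 7.81, 7.78 and 8.07 in normoxic and 7.14, 7.05 and 7.57 in hypoxic regions of tumours 1, 2 and 3. Mvd, which decarboxylates mevalonate diphosphate, was 8.72, 8.5 and 8.01 in normoxic and 7.72, 7.88 and 7.55 in hypoxic regions. Neither gene's groups overlapped. Their differences were -0.63 ± 0.18 and -0.70 ± 0.20 (adjusted p = 0.399 for both). In 6 h cultures Acat2 was 8.13, 8.15 and 8.09 in normoxic and 7.99, 8.13 and 8.09 in hypoxic samples, and at 16 h 8.09, 7.65 and 8.11 against 7.98, 7.91 and 8.01. Mvd was 7.44, 7.32 and 7.44 against 7.36, 7.40 and 7.62 at 6 h, and 7.45, 7.20 and 7.32 against 7.22, 7.76 and 7.19 at 16 h. The culture groups overlapped for both genes at both times. Idi1, the isopentenyl diphosphate isomerase, was lower in tumours 1 and 3 and higher in tumour 2. In 16 h cultures all 5 were higher on average, by a median of 0.07, and Idi1 had the largest difference of the 5, 0.44 ± 0.15 (adjusted p = 0.349).

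From squalene to cholesterol, the widest differences in the tumours were those of Nsdhl and Sqle. Nsdhl, a dehydrogenase that removes methyl groups from the sterol ring, was 9.35, 8.08 and 8.66 in normoxic and 7.45, 6.75 and 7.02 in hypoxic regions of tumours 1, 2 and 3. Sqle, the squalene epoxidase that controls entry to the sterol branch, was 9.26, 9.70 and 9.54 in normoxic and 7.45, 8.16 and 8.47 in hypoxic regions. In both genes every hypoxic array lay below every normoxic one and each tumour differed by more than 1. The mean differences were -1.62 ± 0.20 (3.08-fold, adjusted p = 0.145) for Nsdhl and -1.48 ± 0.22 (2.78-fold, adjusted p = 0.18) for Sqle. In a fit of tumours 2 and 3 alone, which called 563 probe sets, both passed, at -1.49 (adjusted p = 0.00945) and -1.31 (adjusted p = 0.0264). The fits without tumour 2 or without tumour 3 called 0 probe sets, so these passes rest on which tumour is left out.

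Ebp, the sterol isomerase, was 7.84, 8.24 and 7.48 in normoxic and 6.60, 6.35 and 7.18 in hypoxic regions. Its groups did not overlap, and tumour 3 showed the smallest difference of the 3. The mean difference was -1.14 ± 0.32 (adjusted p = 0.388). Of the enzymes that use oxygen at later steps, Cyp51, the lanosterol demethylase, was lower in tumours 1 and 3 by the measured differences of -1.74 and -1.25, and read 0.30 in tumour 2. Msmo1, which works beside Nsdhl, was lower in all 3 tumours, at -0.52, -0.11 and -1.52. Sc5d, the sterol desaturase, read -2.22 in tumour 1 but 0.84 and 0.82 in tumours 2 and 3. Tm7sf2, the sterol reductase, was the only sterol enzyme higher in every tumour, at 0.35, 0.27 and 0.32. Fdft1, Lss, Hsd17b7 and Dhcr7 were past no threshold.

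In cultures the sterol enzymes differed little. At 6 h 23 of all 38 genes were higher (54.2% of all probe sets), 3 of them at an unadjusted p under 0.05 and 0 lower at that level, against 3.11% and 2.03% of all probe sets (5.14% in all). Those 3 were Insig2, Insig1 and Sqle, and in 6 of the 38 every hypoxic culture lay above every normoxic one (5.6% of all probe sets). At 6 h no sterol enzyme was called, and Sqle had the smallest p, with 10.51, 10.59 and 10.52 in normoxic and 10.62, 10.92 and 10.92 in hypoxic cultures 6, 13 and 26. That difference was 0.28 ± 0.12 (adjusted p = 0.971). At 16 h 13 of the 16 sterol enzymes were higher, against 42.8% of all probe sets, and again none was called. Ebp was 8.73, 8.80 and 9.00 in normoxic and 8.61, 8.94 and 9.10 in hypoxic cultures at 6 h, and 8.67, 8.59 and 8.62 against 9.10, 8.77 and 8.97 at 16 h. At 16 h Ebp differed by 0.32 ± 0.13 (adjusted p = 0.527) and Tm7sf2 by -0.31 ± 0.11 (adjusted p = 0.397), both with no overlap between groups. Culture 28 stood out, with a sterol median of 0.50 against -0.04 and -0.07 in cultures 22 and 29.

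Fatty acid enzymes were lower in hypoxic tumour regions in 9 of 10 cases, with a median of -0.65, which was -0.40 without tumour 3. Elovl5, which elongates polyunsaturated fatty acids, was 8.48, 8.55 and 8.20 in normoxic and 7.02, 7.22 and 6.72 in hypoxic regions of tumours 1, 2 and 3. Acss2, which makes acetyl-CoA from acetate, was 8.47, 8.42 and 8.62 in normoxic and 7.62, 7.26 and 7.46 in hypoxic regions. Both were evenly lower in the 3 tumours, with no overlap. Elovl5 differed by -1.42 ± 0.18 (2.68-fold, adjusted p = 0.146) and Acss2 by -1.05 ± 0.19 (2.07-fold, adjusted p = 0.219). In the fit of tumours 2 and 3 alone, with its 563 called probe sets, the Elovl5 difference of -1.40 passed (adjusted p = 0.0145). It did not pass in the fits without tumour 2 or without tumour 3, which called 0 probe sets.

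Scd2, a stearoyl-CoA desaturase, was 8.62, 9.09 and 7.89 in normoxic and 7.97, 8.30 and 6.96 in hypoxic regions. Its groups overlapped, because tumour 3 was low in both regions, while the difference of -0.79 ± 0.18 was similar in the 3 tumours (adjusted p = 0.305). Acaca, the acetyl-CoA carboxylase that commits carbon to fatty acids, was 7.63, 7.45 and 7.37 in normoxic and 6.87, 7.06 and 6.78 in hypoxic regions. It did not overlap and differed by -0.58 ± 0.19 (adjusted p = 0.445).

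Fads2, Fads1 and Elovl6 showed their widest tumour difference in tumour 3. Fads2, a desaturase of polyunsaturated fatty acids, was 10.19, 9.86 and 9.14 in normoxic and 9.05, 9.86 and 7.18 in hypoxic regions. Tumour 2 showed almost no difference, and the mean of -1.03 ± 0.37 did not pass (adjusted p = 0.491). Fads1, its partner desaturase, read -0.33, -0.13 and -1.70 in tumours 1, 2 and 3. Elovl6, which elongates saturated fatty acids, read -0.19, 0.31 and -1.48, and its mean of -0.45 ± 0.35 became 0.06 without tumour 3. Without tumour 3, 3 fatty acid enzymes in place of 5 were lower at an unadjusted p under 0.05, and 10 in place of 13 of all 38 genes.

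In 16 h cultures 6 of the 38 genes were higher and 6 lower at an unadjusted p under 0.05, against 4.41% and 3.79% of all probe sets (8.21% in all). The fatty acid list split. Elovl6, Fads1, Fads2 and Acaca were lower in every hypoxic culture with no overlap (8.13% of all probe sets were so), while Acss2 was higher with no overlap (6.6% of all probe sets). Elovl6 was 8.05, 7.79 and 8.21 in normoxic and 7.60, 6.90 and 7.62 in hypoxic cultures 22, 28 and 29. Its difference of -0.64 ± 0.18 did not pass (adjusted p = 0.192), but did once cultures were blocked by number (adjusted p = 0.0249), which made 2 of the 38 genes called in place of 1. Fads2 was 9.69, 9.54 and 9.59 in normoxic and 9.32, 9.14 and 9.06 in hypoxic cultures at 16 h, and 9.03, 9.16 and 9.30 against 8.94, 9.29 and 9.55 at 6 h. Acaca was 8.23, 8.10 and 8.38 against 7.90, 7.52 and 7.98 at 16 h, and 8.18, 8.28 and 7.88 against 7.99, 8.13 and 8.07 at 6 h. Both genes overlapped between groups at 6 h and not at 16 h. The differences at 16 h were -0.53 ± 0.16 for Fads1 (adjusted p = 0.259), -0.43 ± 0.14 for Fads2 (adjusted p = 0.3) and -0.44 ± 0.14 for Acaca (adjusted p = 0.272). Acss2 differed by 0.37 ± 0.12 (adjusted p = 0.324). At 6 h no fatty acid enzyme was past an unadjusted p of 0.05. The Fads2 response at 16 h was below that at 6 h by -0.53 ± 0.20 (adjusted p = 0.982).

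Of the transport and storage genes, Soat1, which esterifies cholesterol for storage, was lower in each hypoxic tumour region. It was 8.74, 8.17 and 7.98 in normoxic and 8.01, 7.88 and 6.56 in hypoxic regions, with overlap, and differed by -0.81 ± 0.26 (adjusted p = 0.44). In cultures Soat1 was 8.95, 9.02 and 8.56 in normoxic and 8.80, 9.09 and 8.63 in hypoxic samples at 6 h, and 8.63, 8.37 and 8.70 against 8.54, 8.53 and 8.93 at 16 h, with overlap at both times. Stard4, a cytosolic cholesterol carrier, was 6.31, 6.21 and 6.22 in normoxic and 6.75, 7.11 and 6.34 in hypoxic cultures at 16 h. The groups did not overlap, and the difference of 0.49 ± 0.15 did not pass (adjusted p = 0.251). It passed at 0.69 without hypoxic culture 29 (adjusted p = 0.0237). Npc1, Npc2, Abca1 and Abcg1, which move cholesterol out of lysosomes or out of the cell, were past no threshold in the tumour, 6 h or 16 h comparison.

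Sterol and fatty acid enzymes showed no steady difference from each other. The median response of the 16 sterol enzymes minus that of the 10 fatty acid enzymes was -0.11, -0.16 and 0.59 in tumours 1, 2 and 3. It was -0.08, 0.06 and -0.06 in cultures 6, 13 and 26, and 0.15, 0.50 and -0.03 in cultures 22, 28 and 29. Tumour 3, where the fatty acid median was -1.04, and culture 28, where the sterol median was 0.50, gave the widest gaps, and the sign changed between pairs at each setting. Over the 3 tumours the medians were -0.46 and -0.65, and the means were -0.55 and -0.59. At 16 h the medians were 0.10 and -0.02. These are descriptions, since the lists were chosen with earlier results known.

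**Figure D3:**
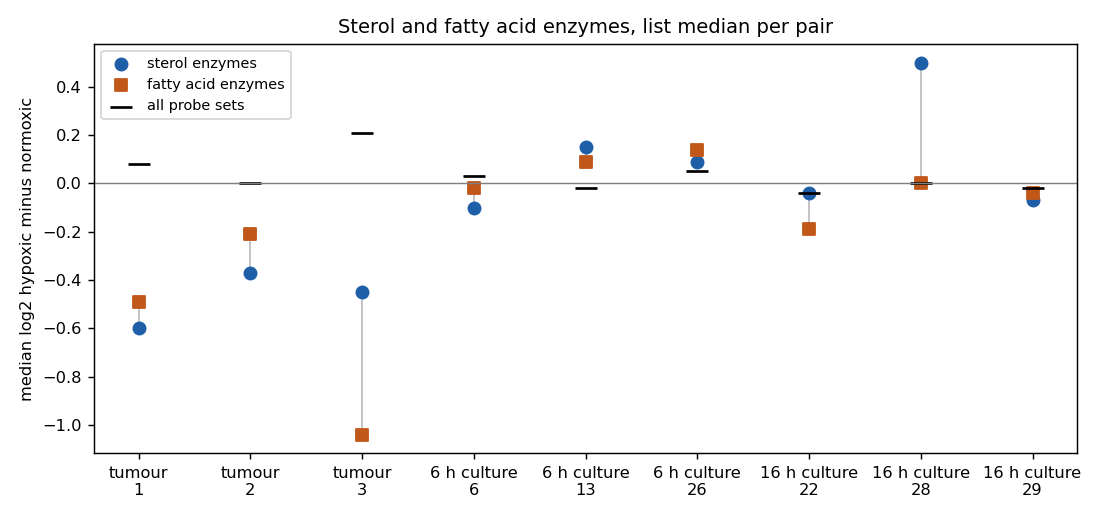
Median log2 difference, hypoxic minus normoxic, of 16 sterol enzymes (circles), 10 fatty acid enzymes (squares) and all probe sets (dashes) in each of the 9 pairs. Both lists lie below the median of all probe sets in the 3 tumours, and tumour 3 and culture 28 show the widest gaps between both lists.

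The tumour and culture responses differed for 5 of the 38 genes. In an interaction contrast over 18 arrays with 9 pairs as blocks, 1.17% of all probe sets were called, 0.987% as lower in the tumour response, against 0.179% as higher, and 5 genes were called, all lower. After quantile normalization the calls over all probe sets split into 443 lower and 195 higher in place of 270 and 49. By direction 32 of the 38 were below 0 (36.7% of all probe sets). The 5 called were Elovl5 (-1.61 ± 0.14, adjusted p = 0.00161), Nsdhl (-1.79 ± 0.18, adjusted p = 0.00366), Sqle (-1.71 ± 0.19, adjusted p = 0.00495), Acss2 (-1.34 ± 0.15, adjusted p = 0.00495) and Scd2 (-1.15 ± 0.21, adjusted p = 0.0362). This fit gives each probe set a single spread over tumour and culture pairs, though tumour arrays vary more. For Elovl5 the SE was 0.14 here and 0.18 in the tumour comparison alone, so these p-values may be too small. At an unadjusted p under 0.05 (16.6% of all probe sets), 15 of the 38 were lower (7.73% of all probe sets) and 1 was higher (8.84%), Tm7sf2. Among the brightest 25% of probe sets 2.81% were called, and 18.7% were lower at an unadjusted p under 0.05, against 13 of the 26 genes there.

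The culture values behind these calls were nearly flat or slightly higher under hypoxia. Nsdhl was 9.48, 9.66 and 9.30 in normoxic and 9.44, 9.90 and 9.72 in hypoxic cultures at 6 h, and 9.59, 9.23 and 9.54 against 9.63, 9.64 and 9.48 at 16 h. Sqle at 16 h was 10.67, 10.25 and 10.55 in normoxic and 10.66, 10.67 and 10.67 in hypoxic cultures. The groups overlapped for Nsdhl at both times and for Sqle at 16 h. Elovl5 was 8.23, 8.44 and 7.91 against 8.35, 8.49 and 8.31 at 6 h, and 8.42, 8.67 and 8.39 against 8.69, 8.70 and 8.64 at 16 h. Acss2 was 7.34, 7.36 and 7.38 against 7.31, 7.59 and 7.78 at 6 h, and 7.48, 7.52 and 7.26 against 7.82, 7.88 and 7.67 at 16 h. Scd2 was 6.44, 6.23 and 6.51 against 6.70, 6.84 and 6.73 at 6 h, and 6.87, 6.69 and 6.56 against 7.08, 7.59 and 6.52 at 16 h. Elovl5 was higher in all 6 hypoxic cultures of its pairs, Acss2 and Scd2 in 5.

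**Figure D4:**
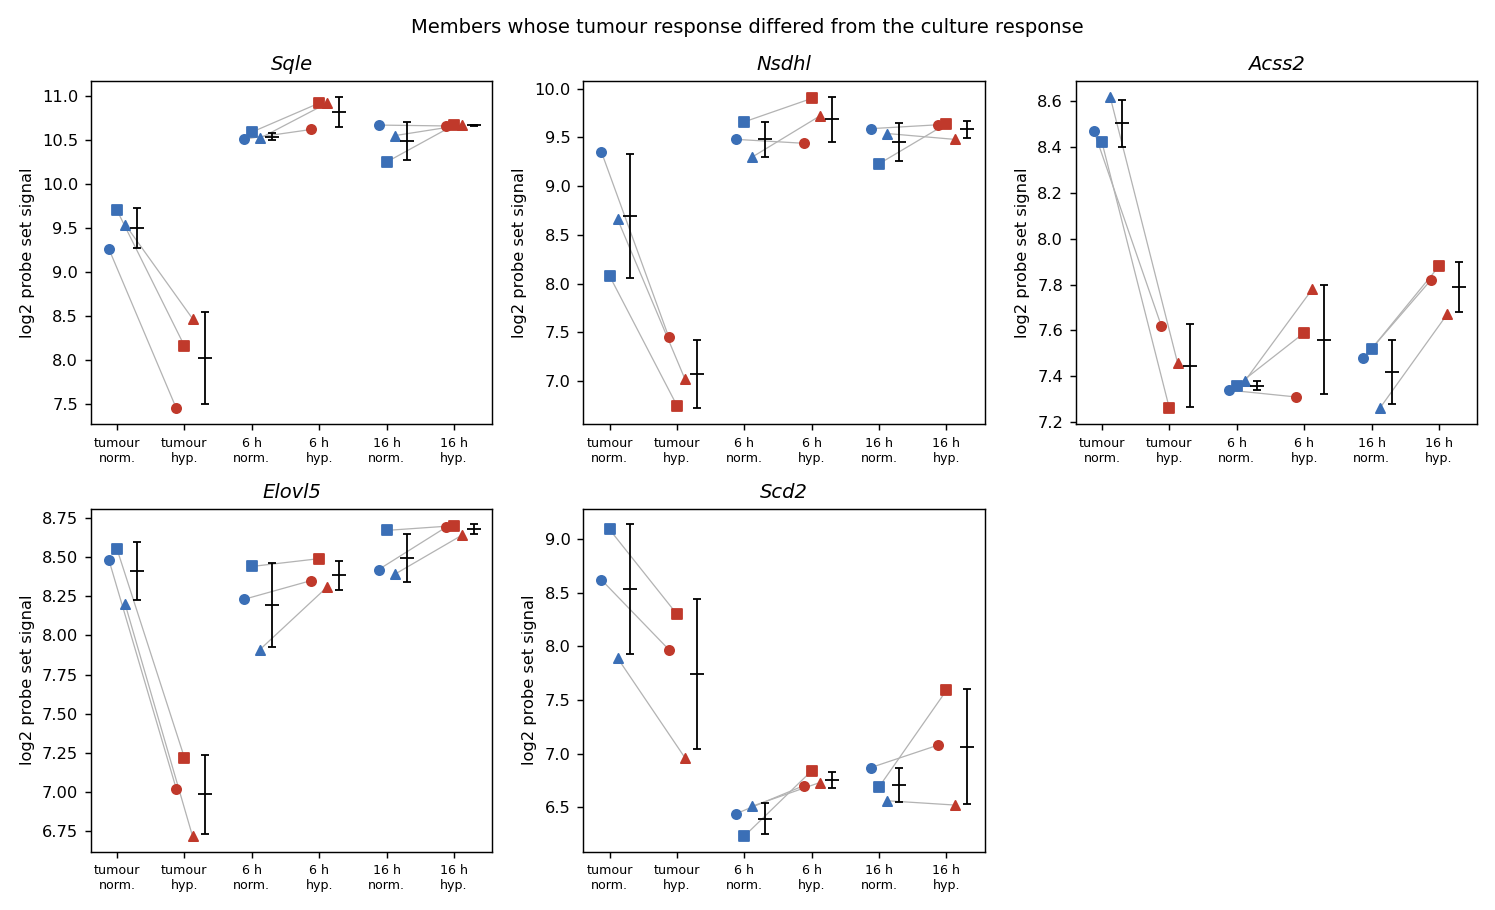
Log2 signal of the 5 genes whose tumour response differed from the culture response, in each of the 18 arrays (normoxic blue, hypoxic red), with lines joining pairs and the mean ± SD of 3 arrays beside each group. Each gene is lower in the hypoxic region of every tumour, and the culture lines run level or upward in most pairs.

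Scd2 lost its call in 7 of the alternatives, among them without tumour 3 (adjusted p = 0.0538) and with no pair blocks (adjusted p = 0.194). The other 4 genes kept theirs in every alternative run. The Insig pair did not pass in this contrast: Insig1 differed by -2.27 ± 0.49 (adjusted p = 0.0564) and Insig2 by -1.34 ± 0.41 (adjusted p = 0.152). Insig1 did pass without the dimmest 25% of probe sets (adjusted p = 0.0493). It also passed without tumour 1, 2 or 3 (adjusted p = 0.00815, 0.0491 and 0.0369). The second Insig1 probe set read -0.23 ± 0.32 (adjusted p = 0.739). With tumour 2 left out, 11 of the 38 genes were called, but calls over all 27363 probe sets also rose, from 319 to 1365.

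Markers of macrophages and of lymphocytes were mostly lower in hypoxic tumour regions, endothelial markers showed no common direction, and in bulk samples fewer cells of a type and less RNA per cell cannot be told apart. The mean of 16 macrophage markers was 8.30 to 8.87 in normoxic and 7.66 to 8.29 in hypoxic regions. Of the 16, 13 were lower (35.2% of all probe sets), 4 at an unadjusted p under 0.05 (5.7% of all probe sets). The mean of 13 T and NK cell markers was 6.56 to 7.69 against 6.12 to 6.41, and 12 of 13 were lower, 6 at that level. Both shifts were widest in tumour 3, with medians of -1.25 and -0.96. In cultures the macrophage mean was 5.45 to 5.62 and 12 to 14 of the 16 markers lay below the array median. Of 7 endothelial markers 4 were higher and 3 lower, with a median of 0.04, 0 at an unadjusted p under 0.05, and group means of 6.08 in normoxic and 6.10 in hypoxic regions. The mean of 12 adipocyte markers was 5.73 to 5.85 in normoxic and 5.85 to 6.02 in hypoxic regions. All 12 were higher on average, by a median of 0.14 and 0 at an unadjusted p under 0.05, and 7 of 12 lay below the array median. Adipoq and Lep were among the 7, while Retn, Cfd and Lipe read 6.88 to 7.38. The part of these cells in the tumour values of the lipid genes was not tested.

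Without hypoxia, tumour regions and cultures differed in most of what the array measures, so counts say little here. In normoxic tumours against normoxic cultures 64.3% of all probe sets were called, and 25 of the 38 genes, 9 higher (43.6% of all probe sets) and 16 lower (20.7%). The median over all probe sets was 0.245 as deposited, 0.057 after quantile normalization and -0.069 after centring on array medians. The calls split into 11938 higher and 5663 lower, 6032 and 4457, and 4371 and 8487 under these scalings. Tissue, host cells and sample preparation cannot be told apart in this comparison.

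The median difference, normoxic tumour minus normoxic culture, was -0.81 for sterol enzymes and 0.37 for fatty acid enzymes. Among the brightest 25% of probe sets the median was -0.62 with 76.3% lower, against -0.72 and 19 of 26 for the genes there, so the bright genes lay near the level of bright probe sets in general. Idi1 was lowest, at -2.55 ± 0.28 (5.84-fold, adjusted p = 3.62e-06), with 6.44, 5.54 and 7.15 in the tumours and 8.5 to 9.47 in the cultures. Scd2 was highest, at 1.99 ± 0.28 (3.96-fold, adjusted p = 3.42e-05), with 8.62, 9.09 and 7.89 in the tumours and 6.23 to 6.87 in the cultures. Mvd (1.05 ± 0.15), Acss2 (1.11 ± 0.11), Srebf2 (1.07 ± 0.24) and the cholesterol exporter Abca1 (1.09 ± 0.17) were also higher in tumours. Npc1 (-1.26 ± 0.13), Mbtps2 (-1.41 ± 0.21) and Insig2 (-1.07 ± 0.28) were lower. After quantile normalization the sterol median was -0.26 and Pmvk, Fdft1, Sqle, Cyp51, Msmo1, Nsdhl, Hsd17b7 and Ebp lost their calls. The fatty acid median was then 0.55, Elovl6 and Acacb lost their calls and Acly turned to 0.02. Centring on array medians gave -1.12 for sterol and 0.06 for fatty acid enzymes, and Lss and Acacb lost their calls. Between both normoxic culture groups 4.86% of all probe sets were called, and of the 38 genes Idi1 (-0.61 ± 0.15, adjusted p = 0.036) and Scap (-0.40 ± 0.10, adjusted p = 0.0345) were lower at 16 h. Time and the code series of the cultures cannot be told apart here. The calls over all probe sets split into 660 higher and 670 lower as deposited, 455 and 325 after quantile normalization, and 453 and 1253 after centring. Neither gene's call held after quantile normalization (adjusted p = 0.128 and 0.136).

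A wider list of 50 lipid genes, of which 37 were measured, was divided in direction in tumours. Of the 37, 18 were lower (35.2% of all probe sets were) and 19 higher, with a median of 0.00 against 0.10 over all probe sets. At an unadjusted p under 0.05, 3 were lower and 2 higher, against 5.7% and 3.42% of all probe sets. The lists were not tested against each other. Vldlr, a lipoprotein receptor, was the 1 gene of that list called in a hypoxia comparison. It was 7.01, 7.02 and 7.06 in normoxic and 7.90, 8 and 8.41 in hypoxic cultures at 6 h, with no overlap, and rose by 1.07 ± 0.13 (adjusted p = 0.00205). At 16 h it was 7.18, 7.54 and 7.26 in normoxic and 7.87, 7.97 and 7.94 in hypoxic cultures, again with no overlap, and its difference was 0.60 ± 0.13 (adjusted p = 0.061), and blocking cultures by number gave an adjusted p of 0.0458. Plin2, a lipid droplet coat protein, differed by 1.16 ± 0.32 in tumours (adjusted p = 0.381) and 0.66 ± 0.20 at 16 h (adjusted p = 0.251). Acsl5, an acyl-CoA synthetase, differed by -0.65 ± 0.17 at 16 h (adjusted p = 0.129, and an adjusted p of 0.0373 with the block). Lpcat3, which remodels phospholipids, differed by -0.79 ± 0.24 in tumours (adjusted p = 0.42). Tecr, an enzyme of fatty acid elongation, differed by -1.73 ± 0.41 in tumours (adjusted p = 0.316), but its other probe set read -0.21 ± 0.20. At 6 h Soat2 differed by 0.30 ± 0.13 and Acsl1 by -0.24 ± 0.12 (adjusted p = 0.971 and 0.984), while the 16 h response differed from that at 6 h by -0.47 ± 0.19 for Vldlr, 0.41 ± 0.17 for Acsl1 and -0.44 ± 0.18 for Soat2 (adjusted p = 0.982 for each). For the tumour response against the culture response, Lpcat3 (-0.94 ± 0.21, adjusted p = 0.0595), Tecr (-1.75 ± 0.40, adjusted p = 0.0675) and Acsl4, another acyl-CoA synthetase (-0.73 ± 0.18, adjusted p = 0.0942), did not pass. Each passed under some alternatives. Tecr did so without tumour 1, 2 or 3 (adjusted p = 0.0309, 0.0285 and 0.0263), but its other probe set read -0.22 ± 0.16 in the main fit.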

How the data were processed

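Amplified total RNA from 6 laser-captured tumour samples and 12 cultures was measured on Affymetrix Rat Gene 1.0 ST arrays. The authors deposited log2 signals of 27363 probe sets. According to the submitters' processing notes, these were made with RMA in Partek 6.5b. The sources used here do not say if the 18 arrays were normalized in 1 run. The number of arrays limits the precision. The platform annotation lists 15420 probe sets, 15097 of them with 1 symbol, 323 with several, which named no gene, and 11943 probe sets are unlisted. Of the annotated, 15067 matched a rat gene table by Entrez ID.

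Tests used limma 3.58.1 (lmFit and eBayes) in R 4.3.3 on all probe sets, two-sided, with Benjamini-Hochberg adjustment and a threshold of 0.05. Tumour regions were compared in 6 arrays with the tumour as a block, culture responses in 12 arrays without a block, and tumour with culture responses over 18 arrays with 9 pairs as blocks. A simulation changed 200 probe sets, with spreads drawn from limma's estimate in unblocked fits. There the tumour test recovered 0% of log2 changes of 1 and 56% of changes of 2. The 6 h comparison recovered 84% and 100%, and the 16 h comparison 90% and 100%. No pair effect was simulated, so the tumour shares may differ from those of the blocked test on real tumours. The response of Insig1 minus that of Insig2 was tested by exact permutation within each setting.

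Deviations of same-numbered cultures from their group means correlated at 0.125, 0.193 and 0.192 at 6 h and at 0.130, 0.188 and 0.307 at 16 h. The numbers were used as pairs for per-pair values, the contrast of tumour and culture responses, and an alternative. The main culture tests used no block, since the labels do not say that the numbers pair the cultures. For culture 6 the highest correlation with another number, 0.177, exceeded its own; for the other 5 cultures none did. The blocked value is given where it changes a call. Tumour samples are paired by animal (0.128, 0.0357 and 0.273, with 0.167 to another number for tumour 2).

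The genes and lists were chosen with earlier results of these data known. Values in every sample are given for genes past the threshold in a hypoxia contrast, those at an unadjusted p under 0.05 in tumours, and the Insig and SREBP genes. Of the other lipid genes, those past the threshold and the 3 with the smallest p in each hypoxia contrast are named. Car9, Slc2a1 and Bnip3 are named as the check of hypoxia. Alternatives were quantile normalization, median centring, trend and robust variance, no dimmest 25% of probe sets, the mean of a gene's probe sets, other blocks and sample sets, and each replicate left out. Promoter windows came from RefSeq (GRCr8), and no array coordinate was used. A planned comparison of the Insig proteins was not made.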

Additional observations from a re-analysis of the deposited data

Results flagged for a closer look

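For 5 genes the response to hypoxia differed between tumour regions and cultures by a test of that difference, limma's interaction contrast over 18 arrays. That fit shares a single spread between tumours and the less variable cultures, so its p-values may be too small. Negative values mean a lower response in the tumours. They were -1.71 for Sqle (adjusted p = 0.00495), -1.79 for Nsdhl (adjusted p = 0.00366), -1.34 for Acss2 (adjusted p = 0.00495), -1.61 for Elovl5 (adjusted p = 0.00161) and -1.15 for Scd2 (adjusted p = 0.0362). Each was lower in the hypoxic region of 3 of 3 tumours.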

How the results depend on the processing

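The 97 gene results named in the text were recomputed under the alternatives, which gave 1303 values. Of these 1217 kept direction and side of the threshold, 44 newly passed, 38 no longer passed and 4 reversed. The reversals were Insig2 at -0.09 and Sc5d at 0.83 in tumours without tumour 1, Elovl6 at 0.06 in tumours without tumour 3 (ranges over left-out tumours -0.09 to 0.97, -0.7 to 0.83 and -0.83 to 0.06), and Acly at 0.02 in normoxic tumours against cultures after quantile normalization. The causes were not tested.

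In the tumour comparison 0 probe sets were called as fitted (2496 at an unadjusted p under 0.05), 22 with trend and robust variance, 1 without the dimmest 25% and 1408 in a fit of all 18 arrays, 12 of them cultures, which called 11 of the 38 genes. Leaving out each tumour gave 0 to 563 called probe sets, the highest without tumour 1, 0 to 4 called genes of the 38, sterol medians of -0.64 to -0.32, fatty acid medians of -0.81 to -0.40, and 3 to 6 fatty acid enzymes lower at an unadjusted p under 0.05. This count was 3 with no replicate block. These counts of unadjusted p under each alternative were added after the data were seen. No call of the 38 genes in that 6-array comparison changed without the block.

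With the culture number as a replicate block, 2 of the 38 genes were called at 16 h in place of 1, and Elovl6, Vldlr and Acsl5 were the named genes that newly passed. It changed no other call of a named gene. For the response of Insig1 minus Insig2 the pairs gave an exact p of 0.00391 by flipping signs. Leaving out an array gave 27 to 50 called probe sets at 6 h (lowest without hypoxic culture 26), 74 to 171 at 16 h (lowest without normoxic culture 22) and 1 to 2 called genes at 16 h (2 without hypoxic culture 29).

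For tumour against culture responses, 319 called probe sets became 638 after quantile normalization and 44 to 1365 when a pair was left out, with 4 to 11 called genes and sterol medians of -0.67 to -0.44, the most calls coming without tumour 2 and the fewest probe sets without culture 13. With no pair blocks Ebp passed and Scd2 did not.

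For normoxic tumours against cultures, quantile normalization gave 10489 called probe sets, a sterol median of -0.26, a fatty acid median of 0.55 and a sterol minus fatty acid gap of -0.81 in place of -1.18. The gap of means was -0.93. Median centring gave medians of -1.12 and 0.06, and leaving out an array fatty acid medians of 0.24 to 0.43. For normoxic cultures at 16 h against 6 h, the 1330 called probe sets became 780 and 0 genes were called after quantile normalization, 1 gene was called with trend and robust variance, and leaving out an array gave 363 to 907 probe sets (lowest without culture 28) and 0 to 1 genes.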
